A study of Mus musculus with 2 samples.

Results

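The genes described here encode the proteasome, the factors that assemble it and its activators. They are the 51 rows of the deposited tables, of 23282 in all, whose symbol is Pomp or is Psm followed by a letter from a to g and a digit. Of these, 50 reached 10 reads in either library and were tested. The exception was Psma8, a core subunit of germ cells, with 2 control and 8 TSA reads. Psmc3ip, which the symbol rule also takes, is named after a protein partner and acts in meiotic recombination, so 50 of the 51 rows are proteasome genes.

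Naïve CD4+ T cells from the spleen of wild-type female C57BL/6 mice, 7 to 10 weeks old, were activated through CD3 and CD28 for 1 day with IL-2, TGF-β1 and antibodies to IFN-γ and IL-4, which induces Treg cells. One culture received DMSO (control) and the other 10 μM Tubastatin A (abbreviated TSA here, an inhibitor of the deacetylase HDAC6). There was 1 library per condition, so no difference given below has a replicate check, and how many mice gave the cells of a culture is not given in the sources used here. The libraries read the 3′ end of polyadenylated transcripts, 1 fragment per molecule whatever the length of the transcript. Reads therefore need no correction for transcript length. Near-identical copies or overlapping genes at the 3′ end, found for 16 of the 51 members, can still alter the reads of a gene. Comparisons between genes below are thus of reads, and only roughly of transcript levels.

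The proteasome is the main protease of the cytosol and nucleus. Its core is a barrel of stacked rings: outer rings of alpha subunits (Psma genes) and inner rings of beta subunits (Psmb genes), a few of which cut peptides. A cap (Psmc and Psmd genes) recognises proteins marked with ubiquitin, unfolds them and feeds them into the core. Lymphocytes and cells exposed to interferon replace the standard catalytic subunits with inducible ones (Psmb8, Psmb9 and Psmb10), and the particle is then called the immunoproteasome, known for making peptides for MHC class I. HDAC6 itself binds ubiquitin and carries ubiquitin-marked proteins to aggresomes.

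The control library held 10845868 reads on genes and the TSA library 10431890. Values of the 2 libraries are given below as control reads and TSA reads, in that order. A single row, Rn45s, the precursor of ribosomal RNA, held 8.72% and 9.63% of them. The 6 T cell genes held from 602 to 4531 control reads each and 13992 control and 14623 TSA reads in all; by more than counting error Cd3d, Cd3g and Cd28 were higher and Cd3e and Lck lower, and Cd4 was on neither side. Pax5, which defines B cells, and Klrb1c, which defines NK cells, were at 0 in both libraries. The 5 B cell genes together held 12 and 15 reads, and the 3 red cell genes 42 and 54. Among the latter, Hbb-bs, with 4 and 17 reads, was higher by more than counting error (95% interval of the fold 1.37 to 17.2). The 8 myeloid genes held 806 and 801 reads, of which 742 and 757 were of Cst3, a gene that many cell types express. The 5 CD8 T and NK cell genes held 969 and 1131 reads, nearly all of Nkg7, which had a fold of 1.16 (95% interval 1.06 to 1.27). The part of such cells in the results below was not tested. Hdac6 had 146 and 166 reads, with a 95% interval of the fold that includes no change (0.896 to 1.42).

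None of the 50 tested members, Psmc3ip included, differed by more than 2-fold, the threshold the study used. Among all tested genes 14.7% did (11.5% higher and 3.15% lower), but many of these have few reads. Among the 5953 genes with a mean normalized count of 250 to 20000, a range that holds 49 of the tested members, the share was 1.44% (0.454% higher and 0.991% lower). Past 1.5-fold there was 1 of the 50, Psmb11, with few reads (18.7% of all tested genes were higher and 8.34% lower, 27.1% in all), and none of the 49, where 8.32% of the range passed (2.97% higher and 5.34% lower). The next limit was a level more than 25% higher or more than 20% lower. It was passed by 6 of the 49, or 12.2%, against 30.5% of the range: Psma5, Psmb3 and Psmg2 were higher (10.2% of the range were) and Psmb7, Psme1 and Psmc3ip lower (20.3% of the range were). Among all tested genes 48.4% passed it, 28.2% higher and 20.1% lower. The median log2 fold change of the 49 was 0.0050 with an SD of 0.19 across genes, and that of the range was -0.084 with an SD of 0.34. All 51 rows together held 134748 control and 136719 TSA reads, which is 1.24% and 1.31% of the reads. As a share of all reads they were thus slightly higher in the TSA library, while with the authors' scaling the summed level did not differ by more than counting error, with a fold of 1.005 (95% interval 0.997 to 1.01). Since RNA was taken from whole cultures, fewer cells of a kind and less RNA per cell cannot be told apart. Fold here is the TSA level over the control level with the authors' scaling, and each interval is an exact binomial one that covers counting error only.

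**Figure D1:**
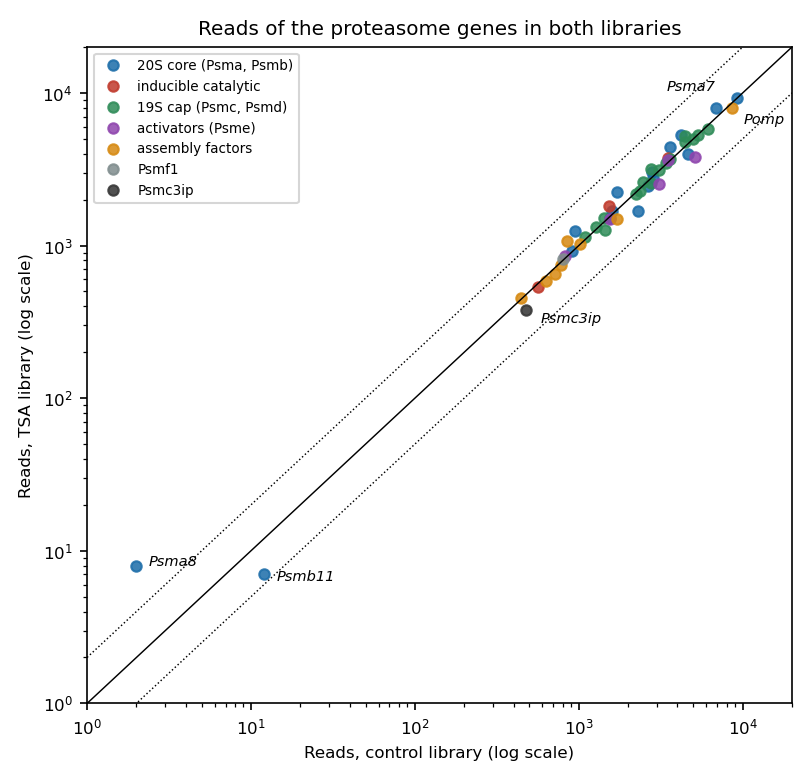
Reads of each of the 51 rows in the control library (x axis, log scale) and the TSA library (y axis, log scale), coloured by class. The solid line marks equal reads and the dotted lines 2-fold differences in reads. All rows but Psma8 (2 and 8 reads) and Psmb11 (12 and 7 reads) lie between 377 and 9305 reads and close to the line of equality.

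Single subunits differed more than the total. The 95% interval excluded no change for 12 of the 50 tested members above no change and for 11 below it, which is 24.0% and 22.0%, beside 28.1% and 28.0% of all tested genes. In the range of 250 to 20000 normalized counts, the background was 21.8% higher and 42.4% lower. Of the 49 members in that range, 24.5% were higher and 22.4% lower. The share of higher members was thus near both backgrounds, and the share of lower members was below that of the range. What follows describes which subunits lay on each side. The 12 that were higher stayed above no change with every scaling of the libraries tried. Of the 11 that were lower, 7 stayed below it. This contrast says little, since most of the scalings shift every log2 ratio up, by 0.070, 0.085 and 0.042, and median of ratios by -0.0024. Higher calls could thus hardly be lost, while lower calls could.

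The core showed the widest spread. In the alpha ring, which forms the gate of the barrel, Psma7 (the alpha4 subunit) had the most reads of all members, 9272 control and 9305 TSA reads, a fold of 0.994 (0.965 to 1.02). Apart from Psma8, the gene of the ring with the fewest reads was Psma5 (alpha5), which went from 952 to 1251 reads, a fold of 1.30 (1.20 to 1.42). Near-identical copies of its 3′ end lie in the annotated genes Gm8394 and Gm12989. Subunits that occur once per ring differed widely in reads. Psma2 (alpha2) had 6830 and 7978 reads, a fold of 1.16 (1.12 to 1.19), and Psma6 (alpha1) had 2812 and 3048, a fold of 1.07 (1.02 to 1.13). Psma4 (alpha3) lay on the other side, with 4607 and 3986 reads and a fold of 0.857 (0.821 to 0.894). The intervals of Psma1 (1602 and 1684 reads), Psma3 (1560 and 1508 reads) and Psma7 included no change. On the opposite strand, 3110056K07Rik, with 16 and 14 reads, overlaps the 3′ end of Psma3. Of the 7 alpha genes tested, 3 were therefore higher, 1 was lower and 3 did not differ by more than counting error, beside 21.8% higher and 42.4% lower in the range of 250 to 20000 normalized counts.

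In the beta ring, the structural subunits, which have no catalytic activity, were higher in 3 of 4 cases, beside 21.8% of the genes of the range of 250 to 20000 normalized counts, and the difference between roles was not tested. Psmb3 (beta3) had 1717 control and 2238 TSA reads, a fold of 1.29 (1.21 to 1.38), and a near-identical copy of its 3′ end lies in Gm4950. Psmb1 (beta6) had 4233 and 5307 reads, a fold of 1.24 (1.19 to 1.29), and Psmb4 (beta7) had 3582 and 4444, a fold of 1.23 (1.18 to 1.28). The exception was Psmb2 (beta4), with 910 and 925 reads and a fold of 1.01 (0.918 to 1.10). Summed over the 4 genes, the level was 1.22-fold (1.19 to 1.26) that of the control.

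The standard catalytic subunits lay at or below no change. Psmb7 (beta2), which cuts after basic residues, had 2296 and 1684 reads, a fold of 0.726 (0.682 to 0.774) and the lowest of all members with more than 12 reads. Psmb6 (beta1), which cuts after acidic residues, had 2638 and 2451 reads, a fold of 0.920 (0.870 to 0.972), and this call was lost with scaling by total reads. Psmb5 (beta5), the chymotrypsin-like subunit that bortezomib blocks, had 2822 and 2771 reads, with an interval that included no change (0.922 to 1.03). The summed fold of the 3 genes was 0.882 (0.853 to 0.911). The 3′ end of Psmb7 overlaps that of Nek6 on the opposite strand, and Nek6, looked up after the values were seen, had 325 and 230 reads, a fold of 0.702 (0.589 to 0.832). Whether the authors counted reads by strand is not given in the sources used here, so the part of this overlap was not tested. The thymic subunit Psmb11 (beta5t), made by cortical epithelium of the thymus, had 12 and 7 reads, and a difference was not detectable at this depth (0.193 to 1.59).

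**Figure D2:**
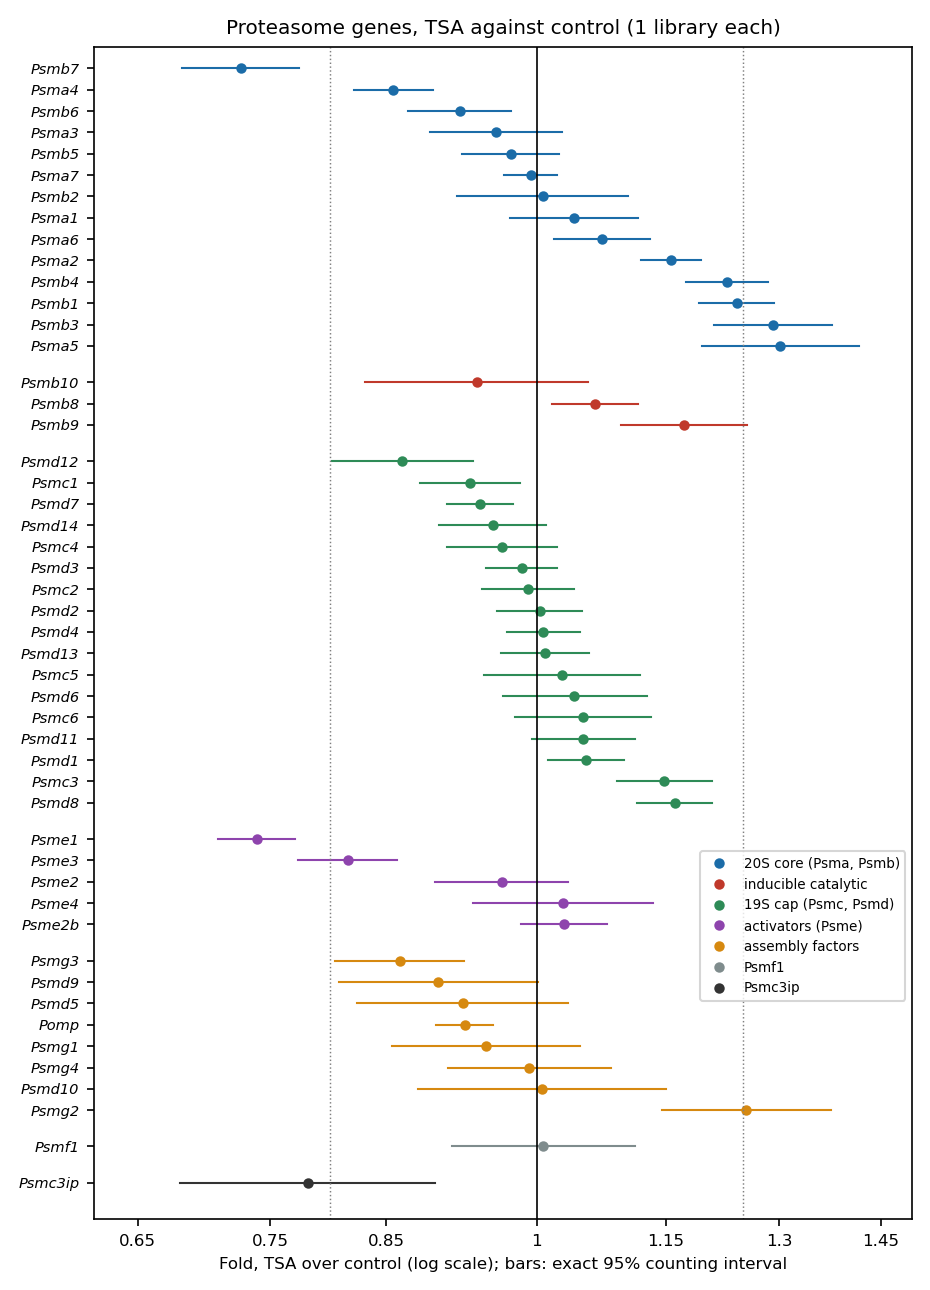
Fold of each member with more than 12 reads (points; TSA over control, log scale) with its exact 95% counting interval (bars), grouped by class, with dotted lines at 25% above and 20% below the control. The cap genes lie close to no change, between 0.865 and 1.16, while core genes run from 0.726 for Psmb7 to 1.30 for Psma5 and Psme1 is the lowest activator at 0.739.

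The inducible subunits gave a contrast with their standard counterparts. Psmb8 (beta5i) had 3489 control and 3752 TSA reads, a fold of 1.07 (1.02 to 1.12), and Psmb9 (beta1i) had 1538 and 1821, a fold of 1.17 (1.09 to 1.26). Psmb10 (beta2i) had 563 and 533 reads, and its interval (0.831 to 1.06) included no change. Each inducible subunit takes the place of 1 standard subunit in the ring, so the share of the inducible gene in the reads of its pair was computed, a measure that no scaling between libraries can alter. Psmb9 made up 36.8% of the reads of Psmb9 and Psmb6 in the control library (95% interval 35.4 to 38.3) and 42.6% in the TSA library (41.1 to 44.1). Psmb10 made up 19.7% of the reads of Psmb10 and Psmb7 in the control library (18.2 to 21.2) and 24.0% in the TSA library (22.3 to 25.9). For Psmb8 and Psmb5 the shares were 55.3% (54.0 to 56.5) and 57.5% (56.3 to 58.7). In all 3 pairs the inducible share was thus higher in the TSA library, by 5.80, 4.35 and 2.24 percentage points. The corresponding odds ratios were 1.27 (1.17 to 1.39), 1.29 (1.13 to 1.48) and 1.10 (1.02 to 1.18), and the exact conditional intervals of all 3 exclude 1. These intervals cover counting error only. In the range of 250 to 20000 normalized counts, 21.8% of genes were higher and 42.4% lower by that measure. Log2 fold changes there had an SD of 0.34, and how often pairs of other genes differ as much was not tested. With the 3 pairs summed, the inducible share was 41.9% of control and 46.9% of TSA reads, an odds ratio of 1.23 (1.17 to 1.29). In the Psmb10 pair, the difference came with a lower level of Psmb7 rather than a higher level of Psmb10. In the annotation, antisense genes overlap the 3′ ends of Psmb10 and Psmb8, and a near-identical copy of the 3′ end of Psmb5 lies in another gene, so that the Psmb9 and Psmb6 pair alone is free of both. Psmb9 and Psmb8 are neighbours in the MHC region, on chromosome 17 of GRCm38 from 34181987 to 34187764 and from 34197721 to 34201454.

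**Figure D3:**
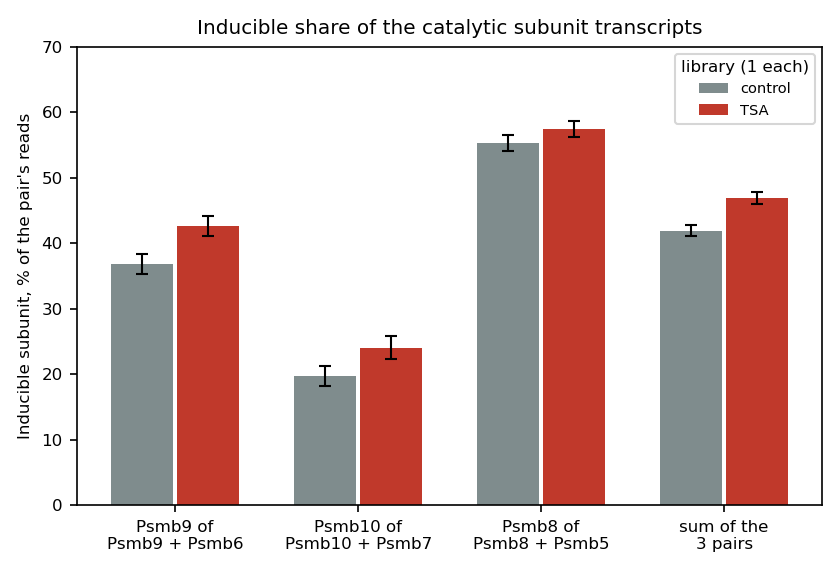
Share of the inducible subunit in the reads of each pair of catalytic subunits (y axis, percent) for the control library (grey) and the TSA library (red), with exact binomial 95% intervals as bars. The share is higher in the TSA library for each of the 3 pairs, and for their sum it is 41.9% and 46.9%.

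The cap was the most even class. Of 17 genes, 3 were higher, 3 were lower and 11 did not differ by more than counting error, beside 21.8% higher and 42.4% lower in the range of 250 to 20000 normalized counts. Their log2 fold changes had an SD of 0.10, beside 0.24 for the 14 core genes other than Psma8 and Psmb11. Among the ATPases of the base, which unfold the substrate, Psmc3 (Rpt5) had 2750 and 3188 reads, a fold of 1.15 (1.09 to 1.21). It overlaps the 3′ end of Slc39a13 on the opposite strand, a gene with 67 and 105 reads. Psmc1 (Rpt2) had 2754 and 2588 reads, a fold of 0.930 (0.882 to 0.982), a call that was lost with scaling by total reads. The other 4 ATPase genes, Psmc2, Psmc4, Psmc5 and Psmc6, lay between a fold of 0.963 and 1.05 with intervals that included no change. Of the large scaffold subunits of the base, Psmd2 (Rpn1) had 3627 and 3675 reads, with an interval that included no change (0.958 to 1.051), and Psmd1 (Rpn2), with 4453 and 4743, reached a fold of 1.05 (1.01 to 1.10). Near-identical copies of the 3′ ends of Psmc1 and Psmd2 lie in other genes, and Gm21972 overlaps Psmd1 on the same strand. Psmd4 (Rpn10), a receptor for ubiquitin, had 4944 and 5028 reads, a fold of 1.01 (0.968 to 1.05).

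In the lid, which removes ubiquitin chains, Psmd8 (Rpn12) had the highest fold of the 8 Psmd genes, with 4422 control and 5183 TSA reads, a fold of 1.16 (1.11 to 1.21). Psmd12 (Rpn5) had the lowest fold of them, with 1440 and 1258 reads, a fold of 0.865 (0.801 to 0.934). Psmd7 (Rpn8), the partner of the deubiquitinase, had 6151 and 5844 reads, a fold of 0.941 (0.908 to 0.975), and its call too was lost with scaling by total reads. The deubiquitinase of the lid, Psmd14 (Rpn11), had 2377 and 2290 reads, with an interval that included no change (0.900 to 1.01). Psmd3, Psmd6, Psmd11 and Psmd13 also had intervals that included no change. Summed reads of the lid gave a fold of 1.01 (0.989 to 1.02) and those of the base 1.02 (1.002 to 1.04). The whole cap lay at 1.01 (1.0005 to 1.02), an interval that included no change with median-of-ratios scaling, and the whole core, without the inducible subunits, at 1.05 (1.04 to 1.06).

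The activators open the gate of the core without using ubiquitin. Psme1, which encodes the alpha subunit of PA28, had 5133 control and 3831 TSA reads, a fold of 0.739 (0.709 to 0.771). Psme3, which encodes the nuclear activator PA28 gamma, had 3069 and 2527 reads, a fold of 0.816 (0.773 to 0.860). Psme4, which encodes the nuclear activator PA200, had 820 and 852 reads, with an interval that included no change (0.934 to 1.13). Both Psme1 and Psme3 were below no change with every scaling tried, and the summed level of the 5 rows was 0.870-fold (0.849 to 0.891). In the annotation, the 3′ ends of Psme1 and Emc9 overlap on opposite strands. Emc9, looked up after the values were seen, had 2504 and 1653 reads, a fold of 0.654 (0.614 to 0.696), and its part in the reads of Psme1 was not tested. No such overlap or copy was found for Psme3.

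PA28 is a mixed ring of alpha and beta subunits, and the beta subunit, Psme2, has an intronless copy, Psme2b. Psme2 lies on chromosome 14 of GRCm38 from 55587441 to 55591113, near Psme1 (55578123 to 55581529), and Psme2b on chromosome 11 from 48945354 to 48946190. Their coding sequences of 720 bases differ at 5 positions. A stretch with 2 of these differences, bases 479 to 538 of the coding sequence in GENCODE M21, is shown with the differing bases in capitals. It illustrates that a read may tell the rows apart by only a few bases. Where the reads of these rows fell was not examined.
Psme2: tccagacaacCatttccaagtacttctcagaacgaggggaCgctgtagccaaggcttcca
Psme2b: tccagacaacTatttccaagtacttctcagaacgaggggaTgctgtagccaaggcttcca
The copy held more reads than the gene with introns: Psme2b had 3505 control and 3645 TSA reads, and Psme2 had 1547 and 1504. Since reads of the pair may have been divided arbitrarily, the rows are uncertain singly. Gm12185, with 36 and 27 reads, also overlaps Psme2b on the same strand. Their share was similar in the libraries, 69.4% (68.1 to 70.6) and 70.8% (69.5 to 72.0) of the pair's reads being assigned to Psme2b. As a sum they had 5052 and 5149 reads, a fold of 1.01 (0.971 to 1.05). The alpha gene therefore made up 50.4% of the reads of PA28 in the control library (49.4 to 51.4) and 42.7% in the TSA library (41.6 to 43.7), an odds ratio of 0.732 (0.691 to 0.776).

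Assembly factors were mostly near or below no change. Pomp, which helps to join the parts of the core and is degraded as the first substrate of the new particle, had the second most reads of the members. It had 8550 and 7989 reads and a fold of 0.925 (0.897 to 0.954), which did not exclude no change with scaling by total reads. Psmg3, a chaperone of the alpha ring, had 1714 and 1493 reads, a fold of 0.863 (0.804 to 0.925), and its 3′ end overlaps the annotated gene Gm26938 on the same strand. Psmg2, another chaperone of that ring, was the exception, with 845 and 1070 reads and a fold of 1.254 (1.14 to 1.37). Its partner in a heterodimer, Psmg1, had 778 and 744 reads, with an interval that included no change (0.855 to 1.05). Psmg4 (1015 and 1017 reads) and the base chaperones Psmd5 (633 and 590), Psmd9 (718 and 652) and Psmd10 (443 and 450) also had intervals that included no change. The summed fold of the 8 assembly genes was 0.944 (0.922 to 0.966), a direction that depended on the scaling: with total reads without Rn45s the summed log2 ratio was 0.0010. Psmf1, which encodes the proteasome regulator PI31, had 805 and 819 reads, a fold of 1.01 (0.913 to 1.11). Psmc3ip, the meiotic gene outside the proteasome, had 478 and 377 reads, a fold of 0.781 (0.681 to 0.896). Mlx, which overlaps its 3′ end on the opposite strand, had 735 and 780 reads, a fold of 1.05 (0.949 to 1.16).

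Promoters were examined for what the members share in sequence, with letters chosen after the changes were known. A promoter window here is the 300 bases from 250 before to 50 after a RefSeq transcript start on GRCm38.p6. Of the 51 members, 43 had at least 1 window, Psmc3ip among them. TGACNNNGC, the core of the antioxidant response element through which the transcription factor NRF1 (Nfe2l1) is known to raise proteasome genes when proteasomes fail, was found on either strand in 6 of the 43, or 14.0%, against 16.9% of the 9196 tested genes and 14.0% of all genes with a window. CCGGAAG, the core of sites bound by ETS factors, was found in 16 of the 43, or 37.2%, against 20.9% of tested genes and 9.93% of all genes with a window. CCAAT was found in 34.9% of the members, 43.1% of tested genes and 41.1% of all genes, and GGGCGG in 55.8%, 68.4% and 38.2%. The letters of an interferon-type element (GAAA, then any 2 bases, then GAAA) was found in 5 of the 43 members (Psmb3, Psmd4, Psmd9, Psme1 and Psmg4), or 11.6%, against 3.76% of tested genes and 3.99% of all genes. The ETS and interferon-type letters were thus more frequent in members than in tested genes, and the other 3 less frequent, as shares without a test. Against all genes with a window GGGCGG was more frequent in members and TGACNNNGC equally frequent.

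Stretches upstream of a start site are shown for members that hold the NRF1 or ETS letters, in capitals, as examples of where these letters stand. Of the genes shown, Psmb6 and Psme3 had intervals below no change, and those of the other 5 included it. The first 3 hold TGACNNNGC or its complement and the last 4 CCGGAAG or its complement. On GRCm38.p6 they lie at chr14:54618019-54618057 (Psmb5, minus strand), chr11:70525333-70525356 (Psmb6, plus strand), chr14:45329582-45329620 (Psmc6, plus strand), chr16:20651611-20651647 (Psmd2, plus strand), chr11:101316091-101316127 (Psme3, plus strand), chr16:95991008-95991044 (Psmg1, minus strand) and chr3:95042718-95042754 (Psmd4, minus strand).
Psmb5: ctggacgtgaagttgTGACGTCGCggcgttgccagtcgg
Psmb6: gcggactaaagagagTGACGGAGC
Psmc6: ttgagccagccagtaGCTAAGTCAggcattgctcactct
Psmd2: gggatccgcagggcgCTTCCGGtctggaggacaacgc
Psme3: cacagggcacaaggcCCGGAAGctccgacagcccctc
Psmg1: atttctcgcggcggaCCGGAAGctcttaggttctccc
Psmd4: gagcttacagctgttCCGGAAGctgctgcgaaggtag
The 6 members with the NRF1 letters (Psmb5, Psmb6, Psmc6, Psmd9, Psmd12 and Psme4) had log2 fold changes from -0.21 to 0.072 with a median of -0.080, and the 37 without had a median of 0.0050. The 16 members with the ETS letters ranged from -0.36, the value of Psmc3ip, to 0.10, with a median of -0.0040. The lowest proteasome gene among them was Psme3 at -0.29. The 27 members without these letters had a median of -0.0090.

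The genes that act with the proteasome were taken from a list of which 29 symbols are reported, 25 of them in the tables and 24 tested. Of the 24, 5 were higher and 11 lower by more than counting error, beside 28.1% and 28.0% of all tested genes and 21.8% and 42.4% of the range of 250 to 20000 normalized counts, and none passed 1.5-fold. Rps27a, which encodes ubiquitin fused to a ribosomal protein, had 11142 and 10389 reads, a fold of 0.923 (0.899 to 0.948). Ubb, which encodes a chain of ubiquitin repeats, was listed with 3 reads in each library, too few to be tested. Whether so few reads reflect the transcript level of Ubb was not tested. Uba1, the main enzyme that activates ubiquitin, had 12235 and 10704 reads, a fold of 0.866 (0.844 to 0.889), and Vcp, the ATPase that extracts ubiquitin-marked proteins, had 5536 and 5582 reads, a fold of 0.999 (0.962 to 1.04).

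Several further genes of the list, named after their values were seen, sit on the proteasome or bring it substrates. Shfm1 (also called Sem1), a small subunit of the lid, had 2785 and 3460 reads, a fold of 1.23 (1.17 to 1.29), while Adrm1, another ubiquitin receptor of the base, had 1385 and 1344 reads, with an interval that included no change (0.891 to 1.04). The deubiquitinases that dock on the cap, Uchl5 and Usp14, had folds of 0.766 (0.704 to 0.833) and 0.915 (0.854 to 0.980). Rad23b, a shuttle for ubiquitin-marked proteins, had 3567 and 3067 reads, a fold of 0.851 (0.811 to 0.894). Akirin2, which guides proteasomes into the nucleus, had 748 and 567 reads, a fold of 0.751 (0.672 to 0.838). Nfe2l1 went from 589 to 472 reads, a fold of 0.794 (0.702 to 0.897), and the related Nfe2l2 from 404 to 504, a fold of 1.23 (1.08 to 1.41). Genes of the list thus lay on both sides, as the subunits did.

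**Figure D4:**
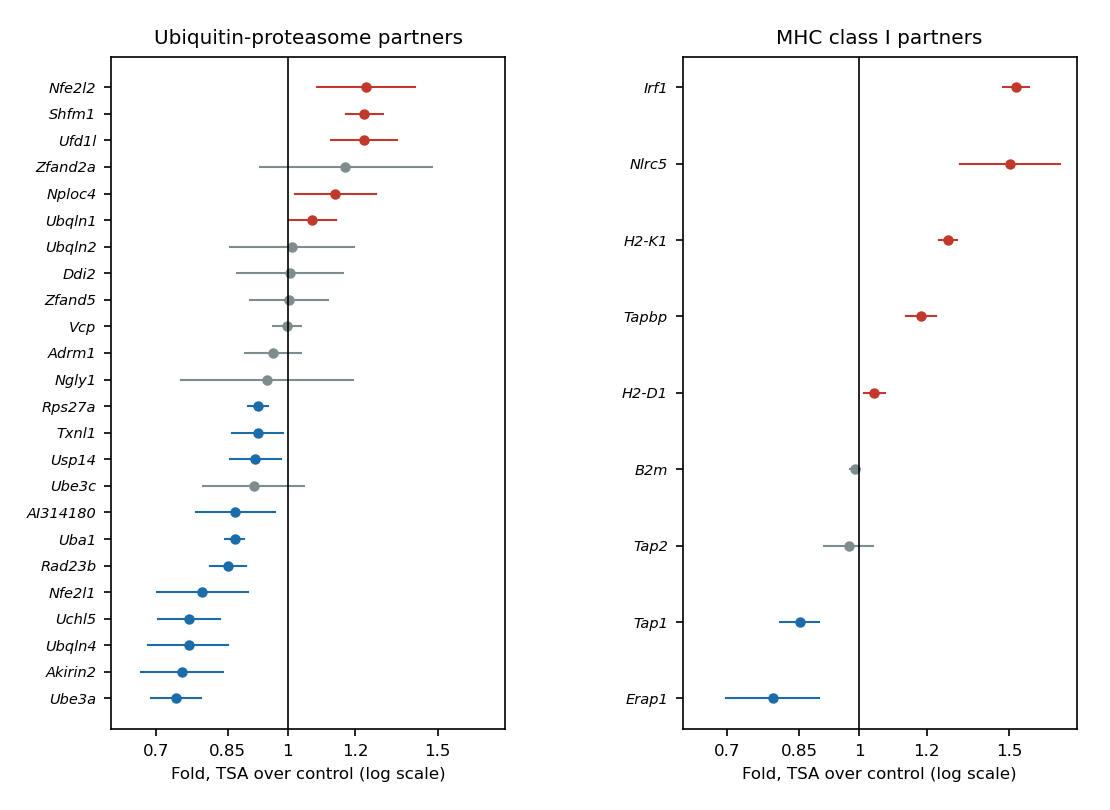
Fold (x axis, TSA over control, log scale) with exact 95% counting intervals for 24 tested ubiquitin-proteasome partners (left) and 9 MHC class I partners (right). Red genes lie above no change by more than counting error, blue genes below it and grey genes on neither side, with Nfe2l2 highest at 1.23 and Ube3a lowest at 0.739 on the left and Irf1 highest at 1.53 on the right.

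The inducible subunits serve the MHC class I pathway, so 9 of its genes are reported. Of these, 5 were higher, 2 lower and 2 did not differ by more than counting error, against the same shares of all tested genes and of the range. The transcription factor Irf1, known to act on the promoters of inducible subunits, had 5208 control and 8028 TSA reads, a fold of 1.53 (1.47 to 1.58), and Nlrc5, the transactivator of class I genes, had 359 and 545, a fold of 1.502 (1.31 to 1.72). H2-K1 had 11188 and 14351 reads, a fold of 1.27 (1.24 to 1.30), H2-D1 a fold of 1.04 (1.01 to 1.07) and Tapbp, which encodes tapasin, a fold of 1.18 (1.13 to 1.23). The peptide transporter gene Tap1, which lies head to head with Psmb9, was on the other side of no change from it, with 2989 and 2570 reads and a fold of 0.851 (0.807 to 0.898). Erap1, which trims peptides, had 563 and 450 reads, a fold of 0.792 (0.698 to 0.898), while the intervals of Tap2 and B2m included no change. The genes of the pathway did not lie on 1 side.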

How the data were processed

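Total RNA of 1 control and 1 TSA-treated culture was used by the authors for QuantSeq 3′ libraries, sequenced as single-end 75-nt reads. The submitters' processing notes name Bowtie2, bedtools and the build mm10 without roles or versions, and how counts were normalized is not given in the sources used here. The deposited values are log2 of a normalized count plus 1, as the values themselves show: taken back from that scale, 1 read was worth 1.005 (control) and 0.9952 (TSA) normalized counts. Of the values of up to 300 reads, 99.7% and 99.0% came within 0.1 of whole reads. Because values are given to 3 decimals, reads of the most abundant members are known to within 3.23 reads. Totals were 10845868 and 10431890 reads, and the detection floor of 3 reads corresponded to 0.277 and 0.288 CPM (reads scaled to library size). PCR copies could not be recognised, so intervals and floors cover counting error only.

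The log2 fold change of a gene was its TSA value less its control value as deposited (pseudocount 1), and a gene with 10 reads or more in either library was tested. With 1 library per condition no p-value was computed; intervals are exact (Clopper-Pearson for folds and shares, conditional for odds ratios, all 95%). They compare 2 libraries, not the conditions. The steps were tested on simulated data. The members and lists were chosen with earlier results of these data known, and the range of 250 to 20000 normalized counts was set to hold the members. Every member may be named. Of the partner lists, genes past 1.5-fold, the most abundant and all MHC class I genes were to be named, and others are marked as chosen later. Of these lists, 3 genes of the first and 1 of the second are not reported here, and counts and plots leave them out.

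Positions come from GENCODE M21 (GRCm38, the build mm10), matched by symbol for 51 of 51 members, and promoter sequences from RefSeq (GRCm38.p6). A member was called uncertain when the last 400 bases of its longest coding transcript matched another gene over at least 75 bases at 97% identity or more, or when another gene overlapped its last 400 genomic bases. This held for 16 of 51 members. Intervals were computed with scipy 1.17.1, tables with pandas 2.3.3 and numpy 2.4.6 and plots with matplotlib 3.10.9, all in Python 3.11.15.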

Additional observations from a re-analysis of the deposited data

How the results depend on the processing

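No paired analysis was possible because each condition had only 1 library, so leaving out a replicate could not be tried either. The odds ratios of the catalytic pairs involve no scaling; the sum of the 3 pairs, 1.23, lay outside the interval of the Psmb8 and Psmb5 pair alone. Median-of-ratios scaling, pseudocounts of 0.1 and 5, and leaving out Psmc3ip moved no value they were applied to by more than counting error and no count by more than 1.5 times. Under median-of-ratios scaling the lower members went from 11 to 12, with Psmd9 added, and the summed cap (log2 ratio 0.016) no longer excluded no change (-0.0016 to 0.033). Scaling by total reads, by total reads without Rn45s and by the upper quartile shifted log2 ratios of reads up by 0.070, 0.085 and 0.042 (fold changes of genes with few reads by less, through the pseudocount), and left all member genes within 2-fold. With total reads, 21 members were higher and 7 lower by more than counting error, and with Rn45s left out 23 and 7. The median log2 fold change with total reads was 0.068 for all members, 0.080 for the core, 0.080 for the cap, 0.16 for the inducible subunits, 0.015 for the activators and -0.025 for the assembly factors, and the summed log2 ratios of these 5 classes were 0.14, 0.088, 0.18, -0.13 and -0.013. Without Rn45s the medians were 0.083, 0.094, 0.095, 0.18, 0.030 and -0.011, and the summed log2 ratios 0.15, 0.10, 0.20, -0.12 and 0.0010, so that the summed assembly factors changed sign. With the upper quartile the medians of core, cap, activators and assembly factors were 0.052, 0.053, -0.012 and -0.053, and their summed log2 ratios 0.11, 0.060, -0.16 and -0.041. These shifts follow from the scaling factors themselves.

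With no filter on low counts, 2-fold was passed by 2817 higher and 1200 lower genes, against 1400 and 383 with it, and by 1 member, Psma8. Requiring 10 reads in both libraries left 524 higher and 223 lower, and requiring a mean of 50 normalized counts left 278 and 141, and the core median was 0.034 under each of these 3 filters. With the limit of 25% higher or 20% lower, 3435 genes and 3 members were higher and 2447 genes and 4 members lower. At 1.5-fold, 2279 genes were higher and 1014 lower, with 1 member lower, Psmb11 (12 and 7 reads). With the whole interval past 2-fold, 605 genes were higher and 99 lower. Without the members of uncertain reads, an alternative chosen after the data were seen, 7 members were higher and 6 lower. The medians of the core, the inducible subunits and the activators were 0.034, 0.23 and -0.13, which follows from fewer genes. The inducible value is that of Psmb9 alone, and the activator value rests on Psme3 and Psme4 only. At these depths a gene with few reads, such as Psma8 (ratio 3.96 in reads, interval 0.790 to 38.3), cannot be placed.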

Other observations

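The 51 members lie on 16 chromosomes, 10 of them on chromosome 11. The 35 members with neither a near-identical copy nor an overlapping gene at the 3′ end include Psmb1, Psmb4, Psmb9, Psma2, Psma4, Psmd8, Psmd12 and Psme3. The intervals of those named excluded no change with every scaling tried. Most of the scalings raise every ratio, so for the higher genes among them this was largely fixed beforehand.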
